A study of Mus musculus with 4 samples.

Results

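Major histocompatibility complex (MHC) class I genes were followed across the cell classes of mouse tumour-draining lymph nodes. The set held 10 members of the 31053 genes in the deposited table, chosen by symbol: the light chain B2m, the classical heavy chains H2-K1 and H2-D1, the nonclassical heavy chains H2-Q6, H2-Q7, H2-T23, H2-M2 and H2-M3, the regulator Nlrc5 and the transporter subunit Tap1. Each of the 10 symbols stood once in the table, and each had counts in every library. The study asked how the kinase BTK and the tryptophan-degrading enzyme IDO bear on inflammatory dendritic cells (DCs) in tumours. All mice were C57BL/6J and carried B16F10 tumours, a transplantable melanoma line of the same strain, in both thighs. The control group was 2 mice without treatment, and the treated group was 2 mice given indoximod (an inhibitor of the IDO pathway, 2 mg/ml in drinking water) and ibrutinib (a BTK inhibitor, 350 ug daily into the peritoneum) from day 9 and the alkylating agent cyclophosphamide (150 mg/kg) on day 10. Inguinal nodes were taken from every mouse 48 h after that dose, so no mouse was free of tumour.

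MHC class I molecules are made of a polymorphic heavy chain and the invariant light chain beta-2 microglobulin, and they show peptides from inside the cell to CD8 T cells and to receptors of natural killer (NK) cells. Peptides are cut by the proteasome, pumped into the endoplasmic reticulum by the TAP transporter and loaded there with the help of chaperones. Transcription of the classical genes depends on NLRC5, which acts at a conserved upstream module of promoter boxes, and on NF-kappa B and interferon-responsive factors. Nonclassical heavy chains are less polymorphic: H2-Q6 and H2-Q7 encode Qa-2 antigens, H2-T23 encodes Qa-1, which binds the NKG2 receptors of NK and T cells, and H2-M3 presents N-formylated peptides. Mature DCs, which carry antigen to the node, are known for high surface class I.

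All members except B2m and Nlrc5 lie in the MHC on chromosome 17. In mm10 with the GENCODE vM21 annotation, all 10 are protein-coding genes. The classical genes are H2-K1 (chr17:33996017-34000347, minus strand) and H2-D1 (chr17:35262730-35267499, plus strand). The Q region genes are H2-Q6 (chr17:35424850-35430055, plus strand) and H2-Q7 (chr17:35439155-35443773, plus strand). The T and M region genes are H2-T23 (chr17:36029773-36032855, minus strand), H2-M2 (chr17:37480851-37483552, minus strand) and H2-M3 (chr17:37270220-37274484, plus strand). Tap1 is at chr17:34187553-34197225 on the plus strand. B2m is at chr2:122147686-122153083 and Nlrc5 at chr8:94434356-94527272, both on the plus strand.

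Promoter windows of 250 bases before to 50 bases after the annotated start were found for 9 of the 10 members in RefSeq (GRCm38.p6). Both strands were searched for 4 motifs: GGGATTCCC, the kappa B core of class I promoters; GAAANNGAA, the core of an interferon response element; TGACG, the core of a cyclic AMP response element; and CCAAT. The kappa B core was found in H2-K1, H2-D1, H2-Q6 and H2-Q7 and in 0.353% of all 32851 promoter windows. The interferon core GAAANNGAA was found in B2m and H2-T23 and in 8.56% of all windows. Other spellings of interferon response elements were not searched, so no match does not mean that a promoter lacks such an element. The letters agtttcacttct, which this pattern does not match, stand in the windows of H2-K1, H2-D1, H2-Q6 and H2-Q7. TGACG was found in 7 members (B2m, H2-K1, H2-D1, H2-Q7, H2-M2, H2-M3 and Tap1) and in 20.8% of all windows, and CCAAT in all 9 and in 37.4% of all windows. A match describes letters in these windows and is not a measured binding site. The stretches below are shown for the 6 members whose levels set the patterns described after them: B2m (chr2:122147538-122147648, plus strand), H2-K1 (chr17:34000349-34000467, minus strand), H2-Q6 (chr17:35424668-35424809, plus strand), H2-Q7 (chr17:35439013-35439153, plus strand), H2-T23 (chr17:36032739-36032834, minus strand) and H2-M2 (chr17:37483624-37483800, minus strand). Each is written 5′ to 3′ on the gene's strand, and capitals mark the matches to the 4 motifs on either strand, a match on the other strand standing as its reverse complement. In H2-T23 the first capitals are the interferon core read on the other strand.
B2m: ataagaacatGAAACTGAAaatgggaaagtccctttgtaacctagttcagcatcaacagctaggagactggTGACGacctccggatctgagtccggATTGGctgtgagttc
H2-K1: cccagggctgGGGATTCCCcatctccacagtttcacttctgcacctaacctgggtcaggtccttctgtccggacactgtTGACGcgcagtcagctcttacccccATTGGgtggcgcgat
H2-Q6: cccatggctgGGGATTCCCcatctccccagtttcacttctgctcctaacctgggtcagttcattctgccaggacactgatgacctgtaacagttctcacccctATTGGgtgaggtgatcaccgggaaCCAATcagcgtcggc
H2-Q7: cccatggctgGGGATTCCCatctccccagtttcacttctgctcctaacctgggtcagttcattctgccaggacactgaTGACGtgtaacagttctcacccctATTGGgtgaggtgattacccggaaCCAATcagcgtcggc
H2-T23: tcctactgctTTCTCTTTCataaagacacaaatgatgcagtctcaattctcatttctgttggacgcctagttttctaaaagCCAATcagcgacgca
H2-M2: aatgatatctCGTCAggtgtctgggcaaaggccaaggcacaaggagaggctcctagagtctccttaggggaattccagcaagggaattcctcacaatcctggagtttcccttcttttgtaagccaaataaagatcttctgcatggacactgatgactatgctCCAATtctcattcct
H2-Q6 and H2-Q7 both carried the kappa B core and CCAAT on both strands, and TGACG was found in H2-Q7 alone of this pair. The H2-M2 stretch held neither the kappa B core nor the interferon core.

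The deposited counts of unique molecular identifiers (UMIs, 1 per captured transcript) cover 4 libraries that carry only the numbers 1 to 4. No library was tied to a mouse or group, so the effect of treatment is not analysed here, libraries are given one by one, and no p-value is reported. The libraries held between 6978 and 9831 barcodes and between 39589629 and 53643414 UMIs. Of 30824 barcodes, 26096 passed the filters of at least 300 genes and at most 10% mitochondrial UMIs, and 86 barcode sequences occurred in more than 1 library. Gates on marker genes placed 18537 of these cells (71.0%) in a class, and 11 classes held at least 20 cells: B-like (8154), germinal centre B-like (273), CD4 T-like (2665), CD8 T-like (6116), regulatory T-like (424), gamma-delta T-like (287), NK-like (52), mature DC-like (330), cDC1-like (22), monocyte-like (55) and macrophage-like (116). Genes outside the gates followed the names: Mki67, a proliferation gene, was at 712 counts scaled per 1000000 UMIs (CPM) in germinal centre B-like cells and 46.4 in other cells, the granzyme gene Gzma at 9726 against 18.2 in NK-like cells, and Ccr7, the homing receptor of mature DCs, at 1094 against 172. In cDC1-like cells Irf8 was at 1989.9 against 132 CPM, while Itgae was at 26.1 against 17.7. Germinal centre B-like cells numbered 128 and 135 in libraries 1 and 2 and 5 each in libraries 3 and 4.

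B2m, which pairs with every heavy chain of the set, was highest in mature DC-like cells. Its level there was 5481, 5838, 5066 and 5022 CPM in libraries 1, 2, 3 and 4, where CPM are the gene's UMIs scaled to a common total of all UMIs of that class in that library. Monocyte-like cells followed at 3971, 3267, 4263 and 4063 CPM. The ranges of these classes did not overlap, with every mature DC-like value above every monocyte-like one. B-like cells held 1283, 1225, 1398 and 1370.3 CPM and germinal centre B-like cells 522, 463, 424 and 1842 CPM. The last of these, from 5 cells, stood apart from the other 3, and T cell classes lay between these B cell and DC levels, with CD4 T-like cells at 1586, 1455, 1759 and 1642 and CD8 T-like cells at 1729.6, 1561, 1764 and 1720.2 CPM. The neighbours from monocyte-like down to CD4 T-like overlapped in pairs, and CD4 T-like and B-like cells did not.

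**Figure D1:**
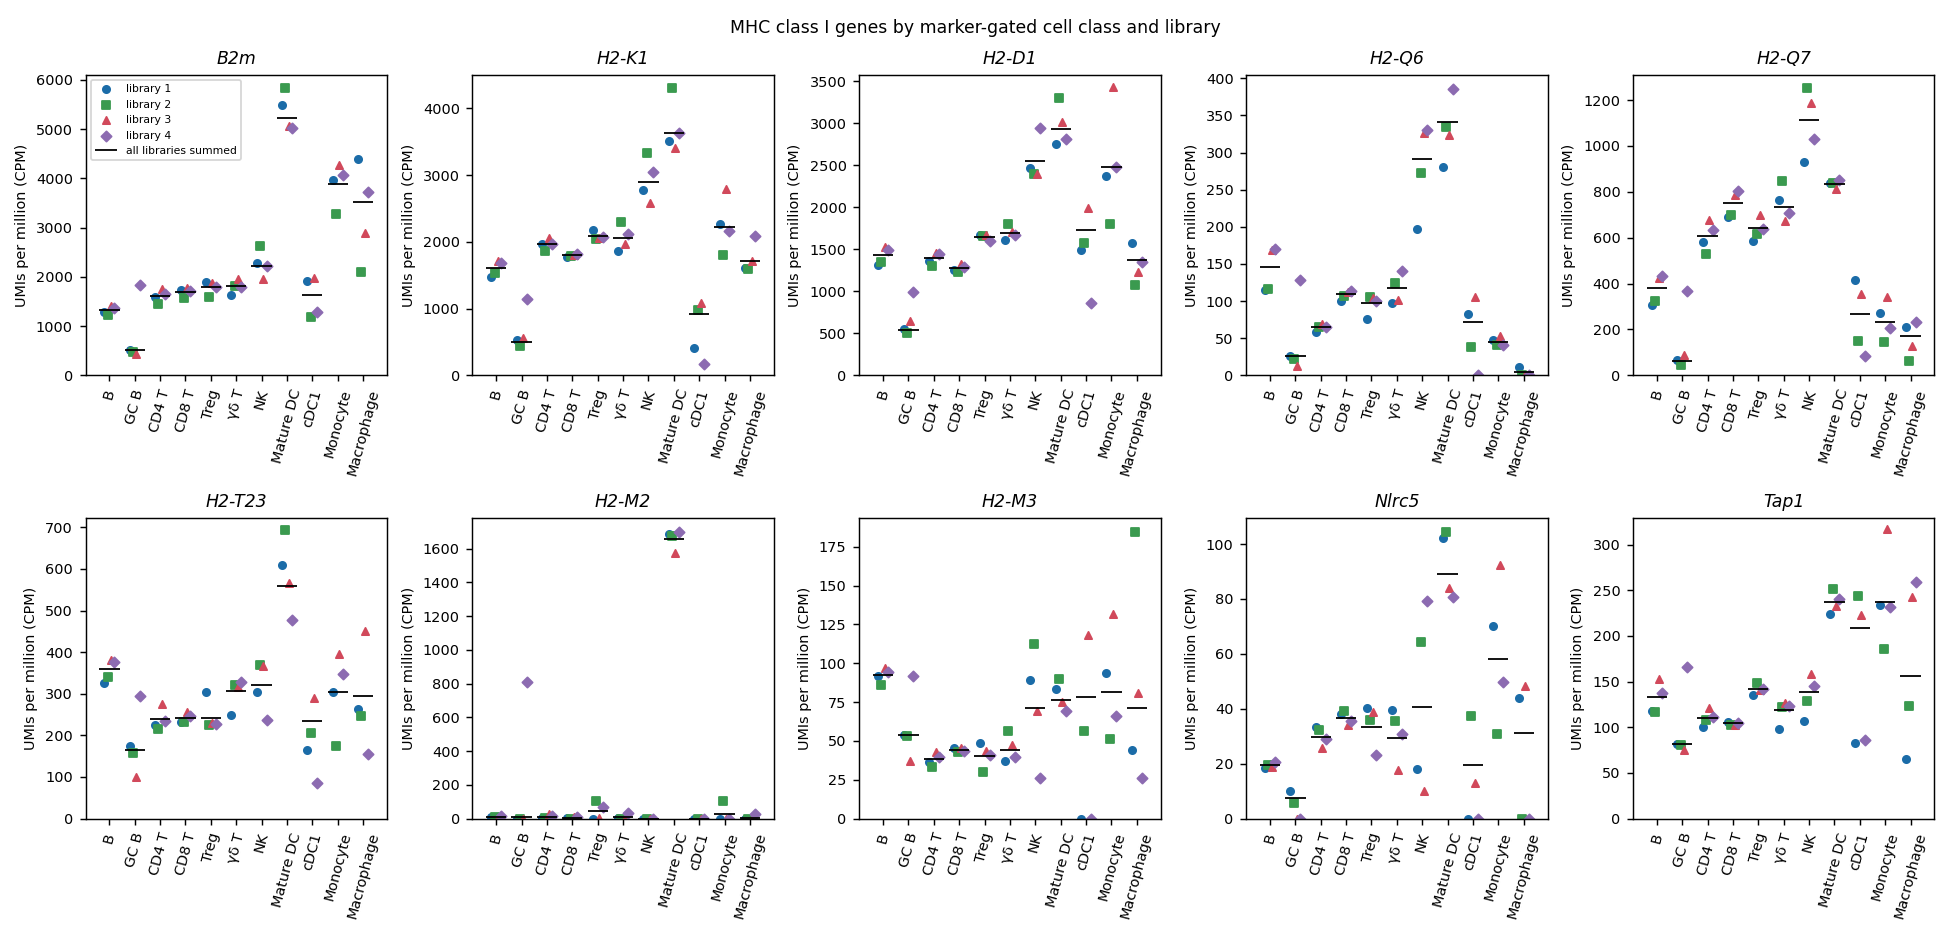
Levels of the 10 MHC class I genes in 11 cell classes, in CPM (vertical axis, linear, each panel with its own scale); points are libraries 1 to 4 and black lines the sum of all libraries. H2-M2 is at 1655 CPM in mature DC-like cells and at most 45.9 CPM in the other classes with libraries summed; the high germinal centre B-like point of library 4 comes from 1 cell.

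H2-K1 and H2-D1, the classical chains of this strain, were also highest in mature DC-like cells and lowest in germinal centre B-like cells with all libraries summed. H2-K1 was at 3507, 4302, 3408 and 3627 CPM in the 4 libraries of mature DC-like cells and at 2771, 3336, 2578 and 3039.6 CPM in NK-like cells. These ranges did not overlap. For H2-D1 the mature DC-like values were 2749, 3296, 3010.4 and 2809 CPM, the NK-like values 2467, 2390.0, 2390.4 and 2947 CPM and the monocyte-like values 2366, 1803, 3432 and 2483 CPM, and neighbours in this order overlapped. In germinal centre B-like cells H2-K1 was at 533, 440.2, 561 and 1142 CPM and H2-D1 at 547, 506, 648 and 995 CPM, with library 4 highest for both genes.

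The balance of the classical chains differed between classes. The share of H2-K1 among H2-K1 and H2-D1 UMIs, with exact 95% intervals for counting error only, was 58.6% [58.1 to 59.0], 58.5% [58.2 to 58.8], 55.4% [54.6 to 56.1], 53.0% [52.7 to 53.3], 48.0% [46.5 to 49.5] and 47.3% [45.0 to 49.7] in CD4 T-like, CD8 T-like, mature DC-like, B-like, germinal centre B-like and monocyte-like cells. By library it was 58.7, 59.3, 57.7 and 58.4% in CD8 T-like and 52.9, 53.2, 53.0 and 52.9% in B-like cells. Those ranges did not overlap. The lowest share was in cDC1-like cells, at 34.8% [30.2 to 39.7], with 38.2% and 35.0% in libraries 2 and 3, the ones with at least 5 such cells. A wider gate, added after the cell numbers were seen, allows 1 UMI of T and 1 of B cell genes. It moves a cell that passes several gates to the class with the most marker UMIs. It also drops the rule that monocyte-like cells hold no UMI of C1qa, C1qb, C1qc, Cd209a, Clec10a or Mgl2. Cells can therefore also leave a class: cDC1-like cells of library 2 went from 5 to 3, while all monocyte-like cells went from 55 to 146. Under this wider gate the 24 cDC1-like cells gave 38.4% [34.4 to 42.5], with 43.0, 43.5, 34.4 and 28.6% in libraries 1 to 4. The 58 plasmacytoid DC-like cells gave 53.3% [51.2 to 55.4]. Counting at the 3′ end makes the share comparable between classes but not a ratio of molecules. Relative to the light chain, H2-K1 and H2-D1 together gave 2.45 counts per B2m count in NK-like, 2.30 in B-like, 1.81 in CD8 T-like, 1.26 in mature DC-like, 1.21 in monocyte-like and 0.876 in macrophage-like cells, so the last 3 of these classes held more B2m counts per classical heavy chain count than the lymphocytes named.

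**Figure D2:**
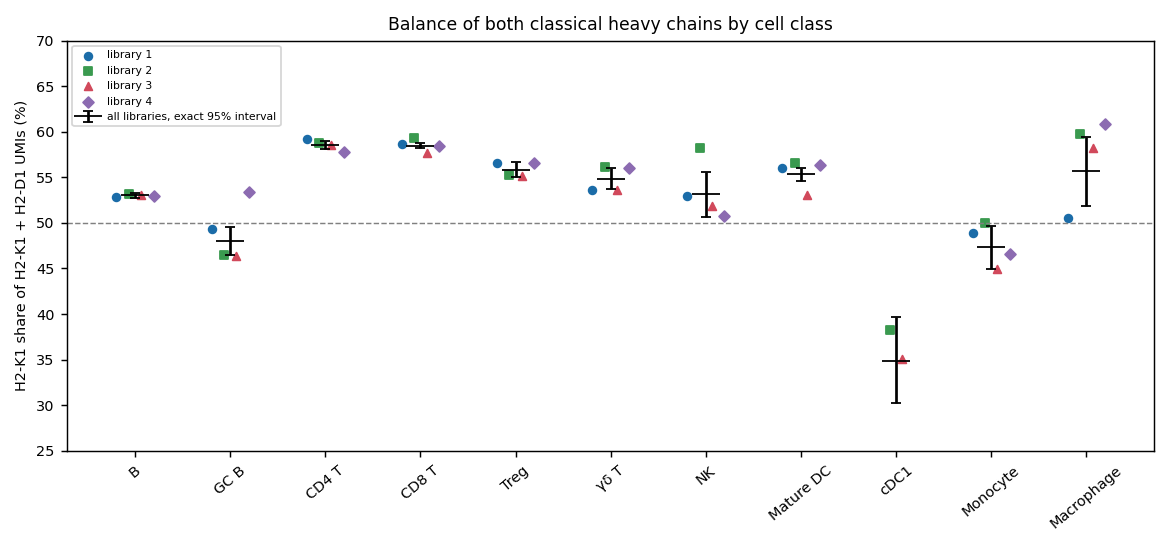
Share of H2-K1 in the summed UMIs of H2-K1 and H2-D1 by class (vertical axis in percent, starting at 25); dashes and bars are all libraries with the exact 95% interval, and points are libraries with at least 5 cells of the class. CD4 and CD8 T-like cells lie at 58.6% and 58.5%, B-like cells at 53.0% and cDC1-like cells at 34.8%.

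H2-Q6 and H2-Q7, the Qa-2 genes, had their highest levels among the 11 classes in NK-like and mature DC-like cells. Plasmacytoid DC-like cells of the wider gate, outside the 11 classes, held 977, 1097, 1309 and 1529 CPM of H2-Q7. Their H2-Q6 was at 158, 191, 251 and 603 CPM. H2-Q7 was at 929.8, 1251, 1185 and 1031 CPM in NK-like cells and 838, 837, 813 and 853 CPM in mature DC-like cells, and the first of these lay above the second in every library. CD8 T-like cells held 692, 699, 785 and 803 CPM, CD4 T-like cells 580.4, 530.0, 675 and 634 CPM and B-like cells 305, 324, 423 and 433 CPM of H2-Q7. B-like values were the lowest of these 3 in every library. H2-Q6 ordered these lymphocytes otherwise: B-like cells held 114, 116, 168 and 170.4 CPM, CD8 T-like cells 99.8, 107, 113 and 114 CPM and CD4 T-like cells 58.2, 65.3, 68.9 and 64.9 CPM. The B-like values were the highest of the 3 in every library. Macrophage-like cells, with a median depth of 1120 UMIs, had 1 H2-Q6 count in all. Germinal centre B-like cells held 26.2, 22.5, 12.5 and 129 CPM of H2-Q6 and 68.1, 44.6, 87.2 and 368 CPM of H2-Q7. The transcripts of this pair resemble each other: of the 60-base windows in the last 500 bases of H2-Q6 transcripts, 62.0% occur in no other gene and 23.4% also occur in H2-Q7, whereas 90.1% of those of H2-Q7 are its own. H2-Q6 counts in particular are therefore uncertain, since reads shared with H2-Q7 may be dropped.

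Among the 11 classes H2-T23 was highest in mature DC-like cells, at 610.0, 692, 566 and 476 CPM. These values did not overlap those of B-like cells at 327, 339, 381 and 376 CPM. The 58 plasmacytoid DC-like cells of the wider gate, outside the 11 classes, held more, at 714, 725, 942 and 720 CPM. NK-like cells held 304, 369, 365 and 238 CPM and overlapped B-like cells. CD8 T-like, regulatory T-like and CD4 T-like cells were close together, at 243, 241 and 238 CPM over all libraries, and their library ranges overlapped. In germinal centre B-like cells H2-T23 was at 174, 157, 99.7 and 295 CPM. For H2-T23, 69.8% of the end windows are its own, and 15.4% also occur in Rab33b.

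H2-M2 was a gene of mature DC-like cells. It was at 1686, 1677, 1577 and 1698 CPM there, a span of libraries narrower than that of B2m in the same cells, and 79.7% of these cells had a UMI at a median depth of 8147 UMIs. By contrast 0.442% of B-like cells (median depth 3786) and 0.376% of CD8 T-like cells (median depth 7052.5) had one. NK-like and cDC1-like cells had 0 counts, which allows up to 10.2 and 19.6 CPM (3 counts). Of all 8350 H2-M2 counts, 56.2% were in mature DC-like cells, and another 30.6% were in 143 cells that passed no gate or several and held a UMI of the mature DC genes Fscn1 or Ccl22. Outside the mature DC-like class the counts sat in few cells. Under the wider gate, 12 of 146 monocyte-like cells held 94 H2-M2 counts, at 72.1, 169, 62.2 and 100 CPM in libraries 1 to 4. In B-like cells 36 cells held the 336 counts, and 17 of them with at least 5 UMIs held 308 (91.7%). All 17 also held a UMI of Fscn1 or Ccl22, which 1.43% of B-like cells did. Leaving out cells with a UMI of either gene, an alternative added after seeing the data, lowered H2-M2 from 9.43 to 0.576 CPM in B-like, from 10.9 to 0.254 CPM in CD4 T-like, from 4.98 to 0.439 CPM in CD8 T-like and from 45.9 to 0.610 CPM in regulatory T-like cells. The source of H2-M2 counts outside the mature DC-like class was not tested. Among mature DC-like cells, the 67 without an H2-M2 UMI were shallower (median 4363 against 8718 UMIs) and had classical genes near the others, with H2-K1 at 3884 against 3604 CPM and H2-D1 at 3143 against 2904 CPM. They held more of the class II chaperone gene Cd74, at 6291 against 3899 CPM.

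**Figure D3:**
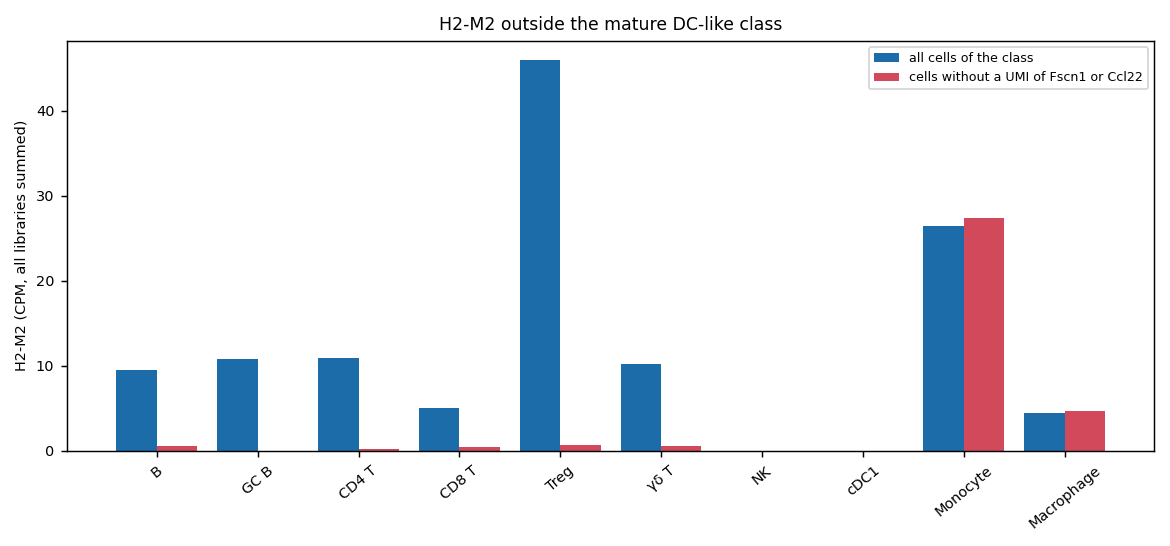
H2-M2 (vertical axis, CPM with all libraries summed, linear from 0) in the classes other than mature DC-like, for all cells of each class and for cells without a UMI of Fscn1 or Ccl22. B, CD4 T, CD8 T and regulatory T-like cells drop below 1 CPM, while the monocyte-like bar rests on 10 counts of 1 cell and stays at 27.3 CPM.

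H2-M3 had another order, with B-like cells highest among the 11 classes at 91.8, 86.2, 96.9 and 94.2 CPM. Mature DC-like cells held 83.6, 90.1, 74.9 and 69.4 CPM and overlapped them. The 58 plasmacytoid DC-like cells of the wider gate, outside the 11 classes, held 164, 95.4, 199 and 147 CPM. Those values were above the B-like value in every library. T cell classes were lowest, with CD8 T-like cells at 45.3, 43.2, 45.7 and 43.5 CPM and CD4 T-like cells at 36.6, 32.9, 42.6 and 39.5 CPM. Every B-like value was above every T-like value of these 2 classes. Germinal centre B-like cells overlapped both, at 53.6, 53.4, 37.4 and 92.1 CPM.

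Nlrc5, the transactivator of class I genes, was highest in mature DC-like cells at 102, 104, 84.0 and 80.8 CPM. The 55 monocyte-like cells held 70.3, 30.9, 92.4 and 49.7 CPM and overlapped them. Among the large lymphocyte classes, CD8 T-like cells were at 38.1, 39.1, 34.0 and 35.6 CPM, CD4 T-like cells at 33.2, 32.1, 25.6 and 29.0 CPM and B-like cells at 18.4, 19.5, 18.9 and 20.5 CPM. B-like values lay below all T-like values of these classes, and germinal centre B-like cells were lower again, at 10.05, 5.52, 0 and 0 CPM from 30 counts. Tap1, a subunit of the peptide transporter, was at 224, 251, 233 and 240.4 CPM in mature DC-like and 234, 185, 317 and 232 CPM in monocyte-like cells, which did not differ beyond their spread. B-like, CD4 T-like and CD8 T-like cells held 133, 111 and 104 CPM of Tap1 over all libraries, and germinal centre B-like cells 81.5, 80.5, 74.7 and 166 CPM by library.

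Mature DC-like cells were set against B-like cells to show which members rise in the antigen-carrying class. A gene was called higher or lower where all usable libraries moved the same way by 1.5-fold or more, a usable library having at least 10 counts of the gene in both classes together and at least 5 cells of each, with 3 or more such libraries needed. This is a rule of size and not a significance test, and ratios are log2 ratios of CPM with the range over libraries in brackets. Higher calls went to 8 of the 10 members and lower calls to 0, where 16.5% of the 10864 genes tested were called higher and 22.5% lower. The ratio was 1.98 [1.86 to 2.25] for B2m, 1.17 [0.99 to 1.48] for H2-K1, 1.04 [0.91 to 1.29] for H2-D1, 1.23 [0.94 to 1.53] for H2-Q6 and 1.14 [0.94 to 1.46] for H2-Q7. Nlrc5 stood at 2.20 [1.98 to 2.47], Tap1 at 0.84 [0.61 to 1.10] and H2-M2 at 7.46 [6.91 to 8.28], or 11.49 without the cells of B-like and other classes that held Fscn1 or Ccl22. H2-T23 (0.64 [0.34 to 1.03]) and H2-M3 (-0.27 [-0.44 to 0.06]) were not called. Transcripts of other lineages were low in the mature DC-like class, with the T cell gene Trac at 8.12 against 366 CPM in other cells and the B cell gene Cd22 at 2.12 against 68.4. The median over the members was 1.16 against -0.18 over all genes tested. With a total that leaves out mitochondrial, ribosomal, haemoglobin and antigen receptor genes, a scaling that moves the median of all genes by -0.38 on the log2 scale, 4 members stayed called, and H2-D1 (0.65), H2-Q6, H2-Q7 and Tap1 (0.45) were not.

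The other genes of the pathway were counted from lists in the same contrast. Of the 7 peptide loading genes, 4 were higher and 0 lower, led by Tapbpl (2.79 [2.46 to 3.20]), the tapasin-related editor, then tapasin itself (Tapbp, 1.72 [1.58 to 2.01]) and the trimming peptidase Erap1 (1.21 [0.78 to 1.57]). Of the 9 proteasome genes, 6 were higher and 0 lower, led by the activator subunits Psme2 (2.65 [2.45 to 2.86]) and Psme1 (1.55 [1.45 to 1.64]) and by Psmb7 (1.35 [0.81 to 1.73]). The medians of these lists were 0.86 and 1.12. Of the 15 regulators, 2 were higher and 4 lower: Irf1 (2.13 [1.73 to 2.49]), an interferon-induced activator, and Nfya (1.55 [0.75 to 1.79]) rose, and the class II transactivator Ciita (-3.84 [-4.06 to -3.68]) fell. Among the 8 tested of 16 other heavy chain and class I-like genes, 2 were higher and 1 lower, with Hfe at 2.82 [0.99 to 3.85], H2-Q4 at 0.92 [0.68 to 1.35] and H2-T24 at -4.68 from 3 mature DC-like counts. Of 6 tested receptor genes, 4 were higher and 1 lower, among them Klrk1 (4.87 [2.58 to 5.65]) and Klrd1 (2.91 [1.5 to 3.84]), and Klra1 had 0 counts in mature DC-like cells.

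**Figure D4:**
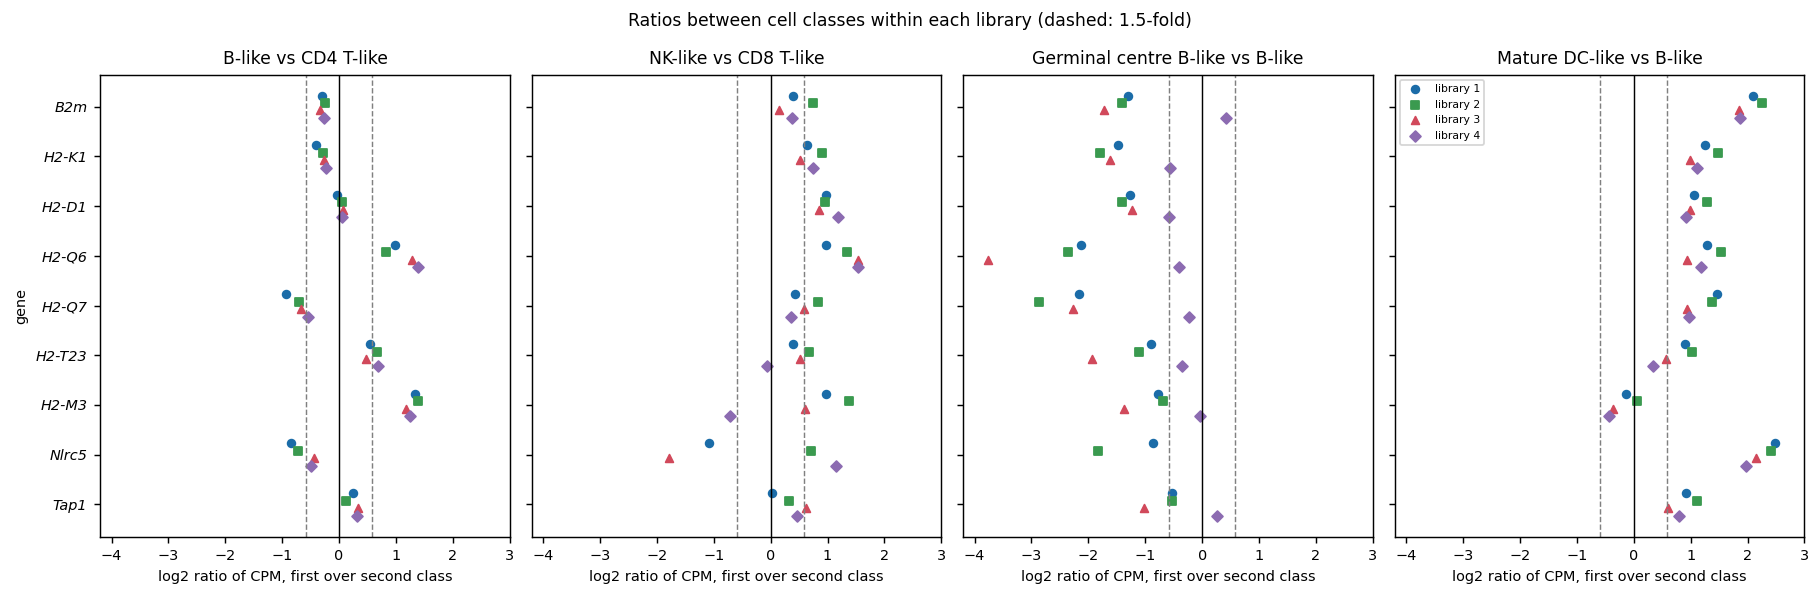
Log2 ratios of CPM between classes for 9 members (H2-M2 and ratios against 0 counts are not drawn), with 1 point per library and dashed lines at 1.5-fold. In germinal centre B-like against B-like cells libraries 1 to 3 lie on the lower side for all 9 members shown except where Nlrc5 has 0 counts, and library 4 lies closer to 0.

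Under the wider gate, 351 mature DC-like cells were compared with 21 cDC1-like cells of libraries 1, 3 and 4, the ones with at least 5 cells of each. There 8 members were higher and 0 lower, against 26.9% of 6200 genes called higher and 10.5% lower. H2-K1 was at 2.02 [1.71 to 3.25] and H2-D1 at 0.94 [0.61 to 1.56]. B2m was at 1.79 [1.43 to 2.34], H2-Q7 at 1.88 [1.19 to 3.13] and H2-T23 at 1.03 [0.89 to 1.25]. Nlrc5 rested on 2, 1 and 0 cDC1-like counts in these libraries and H2-M2 on 0 in all, and no ratio is given for either. Tap1 (0.24 [0.03 to 0.53]) and H2-M3 (0.15 [-0.71 to 1.62]) were not called. Peptide loading split, with Tapbpl (3.29 [2.78 to 4.52]) and Tapbp (1.73 [1.49 to 1.96]) higher and the chaperones Calr (-1.70 [-2.23 to -1.24]) and Pdia3 lower, and of 9 proteasome genes 1 was higher and 3 lower, among them the constitutive subunits Psmb6 (-1.58 [-1.96 to -1.36]) and Psmb5 (-1.41 [-1.91 to -0.75]). Of 14 tested regulators 7 were higher and 2 lower, and of 6 tested other heavy chain genes 3 were higher, among them H2-Q4 (2.72 [2.46 to 2.90]), and 2 lower, led by Hfe (-3.91 [-4.55 to -2.64]). The 41 plasmacytoid DC-like cells of the same libraries had 5 of 8 tested members higher than cDC1-like cells and 0 lower, where 24.5% of 1447 genes were called higher and 10.7% lower. These were H2-Q7 (2.34 [1.82 to 4.00]), H2-K1 (1.62 [1.08 to 3.24]), H2-T23 (1.55 [1.46 to 1.74]), H2-M3 (1.27 [0.69 to 2.51]) and H2-Q6, the last with 0 cDC1-like counts in library 4. H2-D1 (0.65 [0.40 to 1.66]), B2m (0.86 [0.39 to 1.57]) and Tap1 (-0.62 [-1.22 to -0.30]) were not called. In the same cells 6 of 8 tested proteasome genes were lower, led by Psmb9 (-1.25 [-2.03 to -0.88]), and Tapbp was higher (1.51 [1.03 to 1.66]) while Tap2 was lower (-1.04 [-1.17 to -0.70]). Both contrasts share the same 21 cDC1-like cells.

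Monocyte-like cells were compared with mature DC-like cells. They held less of both Qa-2 genes, with H2-Q6 at -2.93 [-3.22 to -2.58] and H2-Q7 at -1.85 [-2.54 to -1.24], and less H2-M2. Lower calls went to these 3 members and higher calls to 0, against 12.3% of 5923 genes called lower and 13.8% higher. B2m (-0.43 [-0.84 to -0.25]), H2-D1 (-0.25 [-0.87 to 0.19]) and Tap1 (0.00 [-0.44 to 0.44]) were not called, and H2-K1 was at -0.71 [-1.25 to -0.28]. Of 13 tested regulators 5 were higher and 0 lower, among them Ciita (3.69 [2.43 to 4.29]) and Stat2 (2.40 [1.78 to 2.87]), and of 9 proteasome genes Psme2 (-1.78 [-2.45 to -1.18]) and Psme1 were lower and Psmb5 higher. TMM scaling, which moved the median of all genes by -0.48, raised the count to 6 members lower.

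In the germinal centre class, where B cells divide and are selected, the CPM of every member but H2-M2 was below that of other B-like cells with all libraries summed, and 2 members passed the rule. Lower calls went to H2-D1 (-1.42 [-1.42 to -0.59]) and Nlrc5 and higher calls to 0, against 14.4% of 10680 genes called lower and 8.19% higher. In libraries 1, 2 and 3 the ratios were -1.47, -1.80 and -1.62 for H2-K1, -1.30, -1.40 and -1.72 for B2m, -2.16, -2.86 and -2.28 for H2-Q7, -2.12, -2.36 and -3.76 for H2-Q6 and -0.91, -1.11 and -1.93 for H2-T23. In library 4 they were -0.56, 0.43, -0.23, -0.40 and -0.35. The Nlrc5 call rests on libraries 1 and 2: libraries 3 and 4 held 0 counts, where 3 counts would give 37.4 and 55.3 CPM, above the B-like levels. Without library 4, 9 members were lower, all but Tap1, with H2-M2 among them at 0 germinal centre counts in libraries 1 to 3. Library 4 had 5 of these cells, and 1 of them, called a doublet, held 22831 UMIs, 76 of the 100 B2m counts, all 44 H2-M2 counts and 17 Fscn1 UMIs. Without it the remaining 4 cells had B2m at 763, H2-K1 at 572 and H2-Q7 at 63.6 CPM, while Tap1 was at 159 CPM, above the B-like 138 CPM of that library. With 4 cells library 4 falls under the minimum, so leaving out called doublets repeats the result without it. The smaller share went with more UMIs per cell. Germinal centre B-like cells had a median of 11734 UMIs and B-like cells 3786, and the mean count per cell was 7.60 against 5.80 for B2m, 7.39 against 7.06 for H2-K1, 2.48 against 1.57 for H2-T23 and 0.901 against 1.65 for H2-Q7. Of the 10 members, H2-Q6 (0.381 against 0.637) and H2-Q7 had the lower mean per cell. Of 9 proteasome genes 4 were higher and 0 lower, led by Psmb7 (1.24 [0.86 to 1.80]), Psmb5 (1.22 [1.00 to 1.33]) and Psmb6 (1.03 [0.73 to 1.26]), while Tapbp (-1.49 [-1.46 to -0.84]) and Cd1d1 were lower. Most of this class comes from libraries 1 and 2, so a summed ratio can lie outside the range over libraries.

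B-like cells held more of the nonclassical genes H2-Q6 and H2-M3 than CD4 T-like cells. Higher calls went to these 2 members, at 1.18 [0.83 to 1.39] and 1.28 [1.18 to 1.39], and lower calls to 0, against 13.8% of 11244 genes called higher and 11% lower. H2-Q7 was lower in B-like cells in 4 of 4 libraries without passing the rule, at -0.69 [-0.93 to -0.55], and so was Nlrc5 at -0.62 [-0.85 to -0.44]. H2-T23 was at 0.59 [0.47 to 0.68], H2-K1 at -0.29 [-0.41 to -0.23] and H2-D1 at 0.04 [-0.04 to 0.06]. Regulators were called higher in 5 of 15 cases and lower in 0, led by Ciita (6.60 [5.73 to 9.12]), Irf8 (4.95 [4.57 to 5.20]) and Rfx5 (1.66 [1.24 to 2.18]), a subunit of the factor that binds the X box of MHC promoters. The 9 proteasome genes gave 0 calls, and of 7 peptide loading genes Erap1 was lower (-0.83 [-0.97 to -0.59]).

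Among T cells the classical chains stayed close and H2-Q6 moved. Between CD8 and CD4 T-like cells H2-Q6 was the 1 member higher in the CD8 class (0.76 [0.71 to 0.81]) and 0 were lower, against 2.64% of 11191 genes called higher and 3.03% lower. H2-K1 was at -0.13 [-0.20 to -0.05], H2-D1 at -0.13 [-0.16 to -0.08] and H2-Q7 at 0.30 [0.22 to 0.40]. The receptors that bind class I rose with the class, 10 of 11 tested being higher, of which Cd8a and Cd8b1 were part of the gate. Regulatory and CD4 T-like cells gave 0 members in either direction, against 9.75% of 9860 genes higher and 2.08% lower, with H2-Q6 at 0.60 [0.38 to 0.69] and Tap1 at 0.36 [0.22 to 0.46]. Without library 1, H2-Q6 was called. The median over all genes tested was 0.22 in this contrast. TMM scaling moved that median by -0.32, and the total without mitochondrial, ribosomal, haemoglobin and antigen receptor genes moved it by -0.24.

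CD8 T-like cells with at least 2 Ccl5 UMIs (666), a gene of memory CD8 cells, were compared with those that had 0 (5026). H2-T23 was at -0.29 [-0.35 to -0.20], Tap1 at -0.35 [-0.53 to -0.10], Nlrc5 at -0.32 [-0.50 to -0.08] and H2-K1 at -0.13 [-0.18 to -0.05]. The 1 member called was H2-M2, higher, and 0 were lower, against 4.68% of 10598 genes higher and 1.64% lower. H2-M2 was at 27.4 CPM from 200 counts in 16 cells, and 10 of the 11 cells with at least 5 UMIs also held Fscn1 or Ccl22. It was at 1.32 CPM without such cells, from 9 counts against 4 in the cells with 0 Ccl5 UMIs, too few for the rule. Libraries 1, 3 and 4 alone were usable for H2-M2, so leaving out any of them also takes it out of the rule. Ccl5 itself was at 15535 CPM in mature DC-like cells. Of 11 tested receptors 8 were higher, led by Klra1, Klra7 and Klrc1, and among the regulators Irf8 was higher (2.12 [1.25 to 2.60]).

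NK-like cells held more H2-D1 (1.00 [0.86 to 1.19]) and H2-Q6 (1.42 [0.98 to 1.54]) than CD8 T-like cells. These were the 2 members called higher, against 6.19% of 10753 genes, and H2-M2, with 0 NK-like counts, was the 1 called lower, against 14.9%. The floor of 3 NK-like counts is 10.2 CPM and lies above the CD8 T-like level of 4.98 CPM, so no fold is given for H2-M2. H2-K1 was at 0.69 [0.52 to 0.89] and H2-Q7 at 0.57 [0.36 to 0.84]. Both higher calls were lost with TMM scaling, which moved the median of all genes by -0.70 and gave 0.29 for H2-D1 and 0.71 for H2-Q6, and with the reduced total (moved by -0.45). The loading genes Pdia3 (1.34 [1.00 to 1.70]) and Canx (1.04 [0.64 to 1.55]) were 2 of 7 higher, Psmb5 (0.92 [0.82 to 1.04]) 1 of 9, and Irf8 and Rela 2 of 15 regulators.

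Cells were finally split by 6 interferon-induced genes (Ifit1, Ifit3, Ifit3b, Rsad2, Isg15 and Usp18), comparing cells with at least 3 UMIs of at least 2 of them with cells that had 0. H2-T23, Tap1, Nlrc5, B2m and H2-K1 had log2 ratios above 0 in every library of both CD8 T-like and B-like cells. Among them Nlrc5 in B-like cells alone passed the rule. In CD8 T-like cells 0 members were called in either direction, against 1.10% of 10094 genes higher and 0.139% lower. H2-T23 ranged over libraries from 0.33 to 0.60, Tap1 from 0.39 to 0.68 and Nlrc5 from 0.38 to 0.85, above 0 in 4 of 4 libraries. B2m (0.07 to 0.13), H2-K1 (0.02 to 0.09), H2-D1 (0.03 to 0.12) and H2-Q7 (0.01 to 0.04) were also above 0 in every library, by less. H2-M3 ranged from -0.28 to 0.09. Among the genes called higher in the pathway lists were H2-T24, another T region heavy chain gene, with 1.19 to 1.78, Stat2 with 1.35 to 2.04, and the receptor gene Pirb. In B-like cells 2 members were higher and 0 lower, Nlrc5 with 0.92 to 1.35 and H2-M2, against 2.40% of 10100 genes higher and 0.337% lower. H2-M2 rested on 10 cells with 179 counts. Without the cells holding Fscn1 or Ccl22 it had 5 counts in the high cells and 7 in the others, too few for the rule. Tap1 ranged from 0.51 to 0.96, B2m from 0.20 to 0.41, H2-T23 from 0.33 to 0.59 and H2-K1 from 0.07 to 0.13. In B-like cells H2-T24 ranged from 1.12 to 2.29 and Stat2 from 1.20 to 1.28, and both were called higher with Irf1.

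Levels were then read over bins of the same UMIs. In CD8 T-like cells with 0, 1 to 2, 3 to 5 and 6 or more of these UMIs, H2-T23 was at 218, 240.1, 281 and 314 CPM, and it was higher at each step in 4 of 4 libraries. Tap1 was at 93.1, 102, 125 and 137 CPM and Nlrc5 at 33.3, 35.5, 43.1 and 46.7 CPM in the same bins with libraries summed, and they were higher at each step in 3 and 2 of 4 libraries. H2-K1 was at 1777, 1784, 1821 and 1901 CPM. In B-like cells H2-T23 went through 332, 375, 420.4 and 467 CPM and Tap1 through 112, 156, 173 and 197 CPM, higher at each step in 4 and 3 of 4 libraries. In CD4 T-like cells H2-T23 went through 208, 239, 278 and 373 CPM, higher at each step in 3 of 4 libraries. Regulatory T-like cells went through 204, 239, 281 and 327 CPM with libraries summed, but H2-T23 was higher at each step in 0 of 4 libraries. Their bins of 3 to 5 and of 6 or more held 45 and 44 cells. H2-M3 showed no rise over the bins, at 45.5, 42.9, 43.3 and 45.5 CPM in CD8 T-like and 91.9, 96.8, 90.3 and 88.7 CPM in B-like cells. Depth moved with the bins, the median going from 6818 to 7809 UMIs in CD8 T-like cells and from 3665 to 4542 in B-like cells. At a fixed 1500 UMIs per cell, which leaves out 0 high and 6 other CD8 T-like cells, 37.7% of the high cells and 27.1% of those with 0 interferon UMIs had an H2-T23 UMI, against 87.5% and 75.5% at full depth. In B-like cells, with 1 and 91 left out, these shares were 49.1% and 37.9%, against 86.3% and 67.9% at full depth. High cells made up 10.0, 8.90, 26.8 and 23.7% of CD8 T-like cells and 4.22, 3.65, 16.4 and 16.5% of B-like cells in libraries 1 to 4, so the pooled levels weight libraries 3 and 4 and the ranges within libraries are the ones to read.

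**Figure D5:**
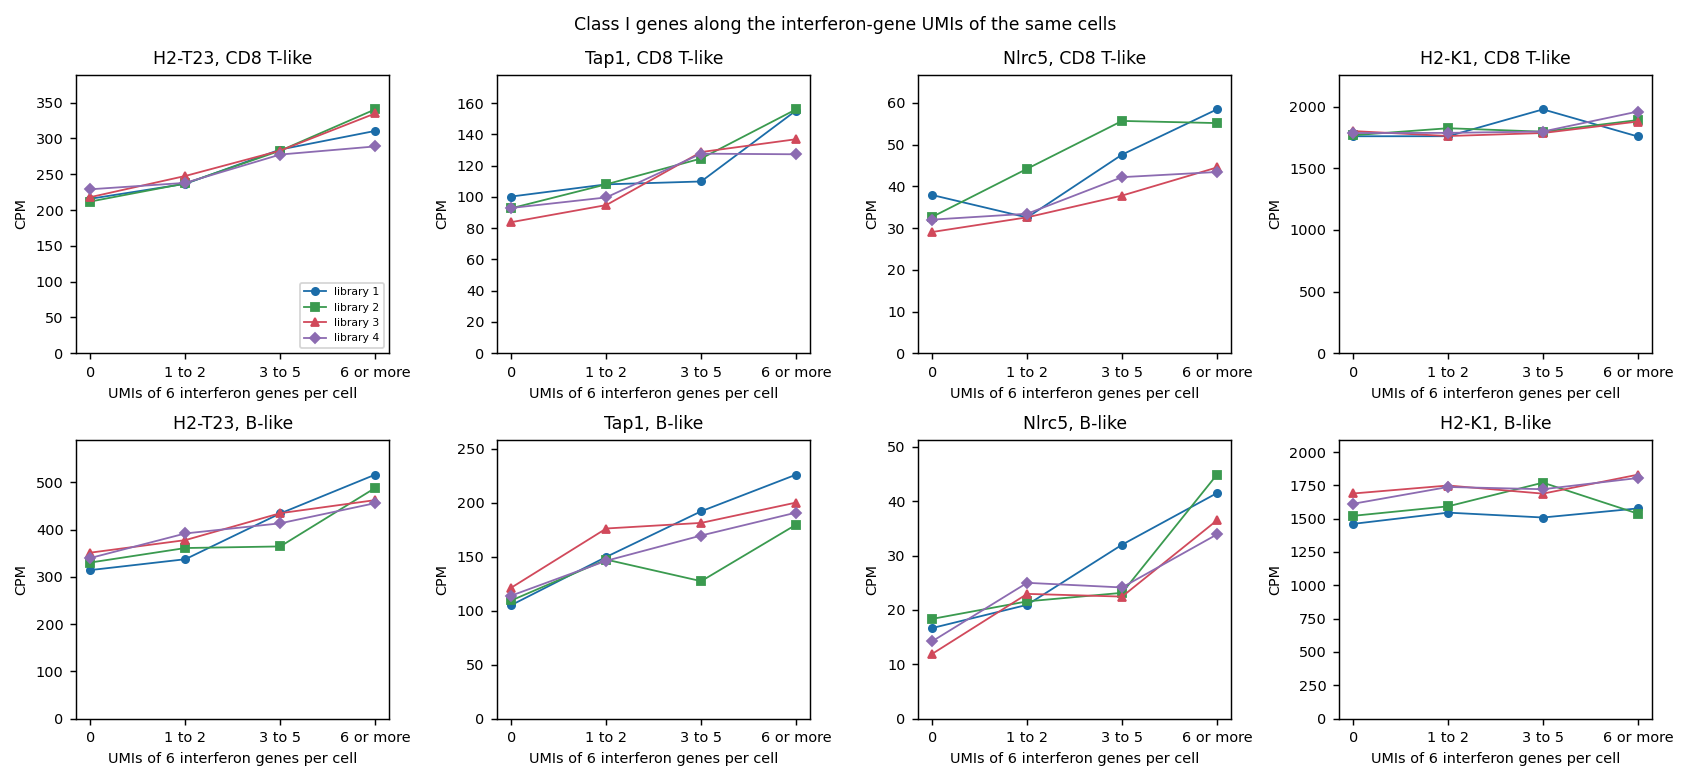
Levels of H2-T23, Tap1, Nlrc5 and H2-K1 (vertical axes, CPM from 0) in CD8 T-like and B-like cells binned by their UMIs of 6 interferon-induced genes, with 1 line per library. With all libraries summed H2-T23 goes from 218 to 314 CPM in CD8 T-like cells and H2-K1 from 1777 to 1901 CPM.

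The members fell into patterns across the 11 classes, described by Pearson's r of log2(CPM + 10) with no p, since the classes share libraries and depth. Nlrc5 was most like B2m (0.91), H2-K1 (0.90) and H2-D1 (0.86) among the members. H2-M3 was unlike H2-Q7 (-0.23) and H2-K1 (0.06). Of 8622 genes searched, the one most like Nlrc5 was Irf1 (0.98), followed by Ank, Hbp1, Rap2b and Nabp1. Most like H2-M2 were Cc2d2a (0.98), Ankrd35, Slco5a1, Mical3 and Tmem150c. H2-M2 was at 1655 CPM in mature DC-like cells and at most 45.9 CPM in the other classes, so its r rests largely on 1 class. Cc2d2a reached 20.8 CPM at most, near the 20 CPM in at least 1 class that the search required. Most like H2-Q7 were Rabac1 (0.91), Gbp4, Cd1d1, Pdcd4 and Kdm5b, and most like H2-T23 were Khnyn (0.90), Neat1, Fbxl20, Tmbim4 and Sbno1. H2-M3 was nearest to Sh2b3 (0.92), Akr1b10, Orai3, Pgls and Ap2b1, and Tap1 to Vti1a (0.97), Dctn4, Dnajb14, Gphn and Plekha1.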

How the data were processed

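Single-cell RNA-seq (10x Genomics, 3′ v3) was analysed from 1 deposited matrix of raw UMI counts made by the authors with cellranger 5.0.0, per the file headers, against mm10, per the submitters' processing notes. The libraries carry numbers only and could not be tied to mice or groups. Kept barcodes had 300 or more genes and no more than 10% mitochondrial UMIs and were gated on marker genes (at least 3 UMIs from at least 2 of 4 markers for most classes, with no UMI of other lineages), and summed per class and library. Levels are CPM of those sums, shares carry exact (Clopper-Pearson) and levels exact Poisson 95% intervals, and both cover counting error only. Barcodes called doublets by Scrublet were kept in the main values and left out in an alternative. Members and gene lists were chosen with earlier results of these data known. The named genes are the members, up to 3 called genes with the largest change of each pathway list and contrast, and the 5 genes most alike; other pathway genes named were chosen after their values were seen. The wider gate, a minimum of 10 cells and leaving out cells with mature DC transcripts were added after seeing the data. The counting was tested on simulated data. Python 3.11.15 with pandas 2.3.3, scanpy 1.11.5 and scipy 1.17.1 was used, and edgeR 4.0.16 (R 4.3.3) for TMM factors alone. 1 melanoma-like cell was too few for its contrast, and a promoter of Nlrc5 and protein sequences are not used here. The results of 1 pathway gene are not reported here.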

Additional observations from a re-analysis of the deposited data

How the results depend on the processing

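Counts of called members kept to within 1.5 times in 123 comparisons of settings and moved further in 24, and no called ratio of a member changed direction. Requiring a 2-fold change left 1 member called in B-like against CD4 T-like cells, 0 in CD8 against CD4 T-like, 1 in NK-like against CD8 T-like, 0 in germinal centre B-like against B-like, 3 in mature DC-like against B-like and 1 in B-like cells split by interferon genes. Thinning to 1500 UMIs gave 0 for Ccl5+ CD8 T-like cells, 1 for NK-like and 6 for germinal centre B-like cells. TMM scaling gave 1 for NK-like, 7 for germinal centre B-like and 6 for monocyte-like cells, and the reduced total gave 1, 4 and, for mature DC-like against B-like cells, 4. Leaving out called doublets gave 9 for germinal centre B-like cells because library 4 then has 4 cells and drops out of the rule, as when that library is left out. A filter of at least 500 genes and at most 5% mitochondrial UMIs gave 0 for the interferon split of B-like cells. Leaving out cells with Fscn1 or Ccl22 gave 1 there and 0 for Ccl5+ CD8 T-like cells, because H2-M2 then has too few counts for the rule. The causes of the other changes were not tested. Leaving out 1 library gave 2 to 3 members in B-like against CD4 T-like, 1 to 1 in CD8 against CD4 T-like, 0 to 1 in regulatory T-like, 0 to 1 in Ccl5+, 2 to 3 in NK-like, 2 to 9 in germinal centre B-like, 8 to 8 in mature DC-like against B-like, 3 to 4 in monocyte-like, 0 to 0 in the interferon split of CD8 T-like and 2 to 3 in that of B-like cells. In the Ccl5+ and NK-like contrasts H2-M2 had only 3 usable libraries, so leaving out any of them takes H2-M2 out of the rule. The H2-K1 share moved by less than its interval or library spread in all 44 comparisons of settings. Germinal centre B-like cells gave no value under the stricter filter, with at least 10 cells, or without Fscn1 and Ccl22 cells, and the alternative for the melanoma-like contrast was not run. No paired analysis was possible because the treatment groups could not be compared, as the labels tie no library number to a mouse or group. Ratios between classes were already taken within each library. Depth limits Nlrc5, H2-M3 and H2-Q6 in the classes of fewer than 60 cells and in the 116 macrophage-like cells, whose median was 1120 UMIs.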

Other observations

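Some genes outside the members were also read by class. H2-Q4, a Q region heavy chain gene, was at 167, 171, 189.6 and 178 CPM in mature DC-like cells of libraries 1 to 4 and 65.6, 87.0, 106 and 111 CPM in B-like cells. H2-T24 was at 20.2, 25.8, 32.4 and 29.2 CPM in B-like and 8.07, 9.00, 13.1 and 13.6 CPM in CD8 T-like cells. The immunoproteasome gene Psmb8 was at 1055, 1224, 1324 and 1262 CPM in mature DC-like and 539, 559, 580.2 and 599 CPM in B-like cells.

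Some members gave values in lymphocytes that lay close within libraries 1 and 2 and within libraries 3 and 4. No library is assigned to a group, so these are values only and were not tested. H2-Q6 in B-like cells was at 114, 116, 168 and 170.4 CPM in libraries 1 to 4, and H2-Q7 at 305, 324, 423 and 433 CPM. H2-K1 in the same cells was at 1478, 1538, 1719.5 and 1681 CPM. In B-like cells with 0 UMIs of the 6 interferon-induced genes, H2-Q6 was at 112, 117, 163 and 164 CPM and H2-Q7 at 305, 324, 417 and 417 CPM. In CD8 T-like cells H2-Q7 was at 692, 699, 785 and 803 CPM, while H2-K1 was at 1778, 1795, 1798 and 1813 CPM with no such grouping.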
